A study of Mus musculus with 3 samples.

Results

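The TNF superfamily ligands described here are 9 genes chosen by symbol: Tnf, Lta, Ltb, Tnfsf9, Tnfsf12, Tnfsf13, Tnfsf13b, Tnfsf14 and Tnfsf15. They are 9 of 54331 features in a table of normalized counts from mRNA sequencing. All libraries came from RAW 264.7 cells, a mouse macrophage line from a male BALB/c background, and every culture had received lipopolysaccharide (LPS, the bacterial ligand of the receptor TLR4) at 100 ng/mL for 5 h. The control was 1 library of cells with a control shRNA, called wild-type in the labels, and 2 libraries carried shRNAs against GIV (Girdin, encoded by Ccdc88a), a different shRNA in each. The series title concerns the dampening of TLR4 signalling by GIV. No library without LPS was analysed here, so the levels below are levels under LPS and not responses to it.

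Ligands of this family are mostly made as membrane-bound trimers, and several are cut from the cell surface to act at a distance. Their receptors belong to the TNF receptor superfamily and signal through TRAF adaptors to NF-kB and MAP kinases, or, where they carry a death domain, towards cell death. In macrophages Tnf is a classic early gene of the TLR4 response, and its mRNA is also controlled through AU-rich elements bound by Zfp36 (tristetraprolin). Most of the other ligands here are better known for acting on lymphocytes. Lymphotoxins act in lymphoid organ formation, and Tnfsf13 (APRIL) and Tnfsf13b (BAFF) in B-cell survival. Tnfsf9, Tnfsf14 (LIGHT) and Tnfsf15 (TL1A) act in T-cell costimulation.

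Totals lay between 47349097 and 49756670 normalized counts per library, and 20030 to 20590 features were above 0. The commonest low value was 0.931 to 1.11, so a value near 1 stands for about 1 read. Ccdc88a, the targeted gene, had 2580 normalized counts in the control, 1734 with shRNA 1 and 2561 with shRNA 2. The label GIV-depleted was thus not borne out by Ccdc88a mRNA in the library labelled shRNA 2 (protein was not measured), and every direction shared by both shRNA libraries rests in part on that library. Both libraries are named below by their labels. The macrophage label held: all 8 macrophage markers were above the filter, with summed levels of 452943 normalized counts in the control, 343534 with shRNA 1 and 366168 with shRNA 2. Much of the lower sum came from Lyz2, with 199781, 121997 and 138145, while Cd14 had 119577, 122965 and 112411. Fcgr1 (48715, 32239 and 33167) and Csf1r (18776, 9476 and 15612) were also below the control in both shRNA libraries. Of the 8 markers 5 were below the control in both shRNA libraries, against 35.2% of all tested features. The other 3 had opposite directions, against 29.7%. Of 13 lymphocyte markers 2 were above the filter, Pax5 (138, 160 and 113 in the same order) and Ms4a1 (6.56, 8.87 and 20.2). The sums over the 13 were 153, 175 and 156, and Cd3e and Cd2 were listed at 0 throughout. Of 8 dendritic cell markers 3 were above the filter. These were Itgax (725, 970 and 764), Xcr1 (383, 278 and 320) and Zbtb46 (14.7, 17.5 and 34.9). The sums over the 8 were 1129, 1285 and 1122, and Flt3 was listed at 0 throughout. No neutrophil and mast cell (0 of 8), fibroblast (0 of 6) or epithelial (0 of 6) marker was above the filter, with sums of at most 1.93, 5.61 and 4.45. The part of the lower macrophage marker sum in the results below was not tested.

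Ltb, Tnf and Lta lie side by side on chromosome 17 (GRCm38), from 35194439 to 35205351, within the major histocompatibility region. Ltb is read from the plus strand and Tnf and Lta from the minus strand, with 1158 bases between Tnf and Lta and 3061 between Tnf and Ltb. The bases just upstream of their RefSeq start sites are shown because these neighbours differ widely in level, and those of Tnfsf15 because its level differed most between the shRNA libraries. Capitals mark any match to the kB consensus motif (the NF-kB site), to the AP-1 motif TGANTCA or to the TATA box letters TATAAA on either strand, and bases that GENCODE places inside the gene are left out. The windows are chr17:35202008-35202257 (minus strand) for Tnf, chr17:35205352-35205601 (minus) for Lta, chr17:35194257-35194438 (plus) for Ltb and chr4:63745114-63745309 (minus) for Tnfsf15.
Tnf: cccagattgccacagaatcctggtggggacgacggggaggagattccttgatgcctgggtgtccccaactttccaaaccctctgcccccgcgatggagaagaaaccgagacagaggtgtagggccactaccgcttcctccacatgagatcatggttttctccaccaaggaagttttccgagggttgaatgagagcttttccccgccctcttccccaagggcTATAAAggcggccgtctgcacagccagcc
Lta: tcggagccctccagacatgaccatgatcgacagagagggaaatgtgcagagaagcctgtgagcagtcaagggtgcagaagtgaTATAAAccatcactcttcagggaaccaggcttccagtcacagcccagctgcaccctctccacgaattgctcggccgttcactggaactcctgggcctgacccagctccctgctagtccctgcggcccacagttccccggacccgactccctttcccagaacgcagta
Ltb: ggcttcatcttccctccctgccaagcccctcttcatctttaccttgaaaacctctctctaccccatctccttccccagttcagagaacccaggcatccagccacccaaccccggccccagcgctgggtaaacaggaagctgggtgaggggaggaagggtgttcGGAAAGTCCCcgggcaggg
Tnfsf15: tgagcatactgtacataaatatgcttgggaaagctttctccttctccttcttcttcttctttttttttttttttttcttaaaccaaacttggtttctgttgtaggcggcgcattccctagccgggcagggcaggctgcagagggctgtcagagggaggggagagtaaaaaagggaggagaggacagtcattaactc

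In the 250 bases before the start site, Tnf has the TATA letters at -29, close to where a TATA box usually stands, and Lta has them at -167. Among all 32851 RefSeq promoter windows of that length, 12.37% hold these letters. Ltb has the 1 kB consensus match found among the ligands, at -87, and 3.9% of all windows hold one. Tnfsf13 and Tnfsf14 each have an AP-1 match, as does 1 of the 2 windows of Tnfsf13b, against 6.75% of all windows. The matches of Tnfsf13 (at -133) and Tnfsf13b (at -127) lie in bases that GENCODE places inside the gene. That of Tnfsf14 (at -160) lies outside it. The window of Tnfsf15 holds none of these motifs. RefSeq windows (GRCm38.p6) were found for 7 ligands and not for Tnfsf9 and Tnfsf12. A match describes letters and not a bound site.

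The ligands also differ in the 3' untranslated region, where AU-rich elements lie. The AU-rich nonamer TTATTTATT occurs 5 times in the longest annotated 3' untranslated region of Tnf (767 bases), counting overlapping matches on the transcript strand. It occurs 1 time each in Lta and in Tnfsf13b and not in the other 6 ligands. Among 2392 genes with a 3' untranslated region within 20% of Tnf's length, 3.55% hold it at all. For the much longer region of Tnfsf13b (3634 bases) that share is 14.45%, and for Lta (575 bases) it is 3.03%.

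Levels were ordered per kilobase of the longest annotated transcript, since genes differ in length. Tnf stood far above the rest, with 21430 normalized counts per kb in the control, 25120 with shRNA 1 and 25580 with shRNA 2. In the control it lay at percentile 98.8 of 11611 tested protein-coding genes. Tnfsf9, the costimulatory ligand, followed with 2611, 1963 and 2342 per kb, and Ltb, the membrane anchor of the lymphotoxin heterotrimer, with 1522, 1573 and 2320. Tnfsf9 was above Ltb in each library by this length, by little with shRNA 2. With mean transcript length Ltb was above Tnfsf9 with shRNA 2 (2833 against 2342 per kb), so the order of these neighbours is not settled. Lta had 84.0, 140 and 181 per kb, Tnfsf13b 54.6, 84.2 and 57.2, and Tnfsf15 51.7, 622 and 55.2. Tnfsf15 was thus below Lta and close to Tnfsf13b in 2 libraries and above both with shRNA 1. At the foot stood Tnfsf12 (TWEAK) with 22.4, 26.1 and 37.8 per kb, Tnfsf14 with 17.7, 12.1 and 16.2, and Tnfsf13 with 0, 11.8 and 11.0. With merged exon length or mean transcript length in place of the longest transcript Tnf stayed at the top in every library, while places below it changed, as for Lta, Tnfsf13b and Tnfsf15. Of all normalized counts given to the 9 ligands, Tnf held 85.1% in the control, 84.6% with shRNA 1 and 85.5% with shRNA 2.

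**Figure D1:**
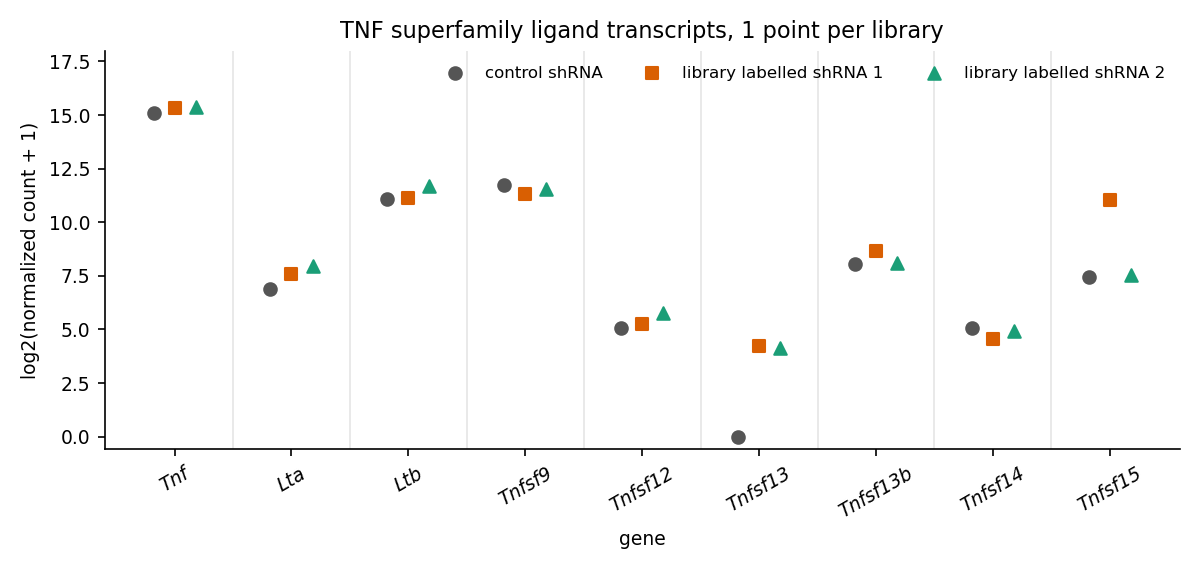
Level of each ligand as log2(normalized count + 1), 1 point per library (grey circle, control shRNA; orange square, labelled shRNA 1; green triangle, labelled shRNA 2), not corrected for transcript length. The Tnfsf15 square stands apart from its other points (2083 against 173 and 185 normalized counts), and the Tnfsf13 control point is at 0.

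Setting the libraries with shRNAs against GIV beside the control addresses how ligand transcripts differ under LPS when GIV is targeted. Tnf was modestly higher in both, Lta was higher in both by more, Tnfsf9 was lower in both, and Tnfsf15 was about 12-fold higher with shRNA 1 alone. No ligand passed an adjusted p of 0.05 in limma, and neither did any of the 13877 tested features (0% called), of which 963 (6.94%) had an unadjusted p under 0.05. Of the 9 ligands 2 had such a p, Lta and Tnfsf13, and 1 of 8 without Tnfsf13, whose control value is 0. At least 2-fold from the control were 2 ligands with shRNA 1 (Tnfsf13 and Tnfsf15), against 6.92% of tested features, and 2 with shRNA 2 (Lta and Tnfsf13), against 7.32%. Tnfsf13 counts there only through the pseudocount, and without it 1 of 8 ligands was past 2-fold in each library. At 1.5-fold these counts were 4 with shRNA 1, against 16.7% of features, and 4 with shRNA 2, against 17.2%. By direction alone, 7 of 9 ligands were above the control in both shRNA libraries, against 34.9% of all tested features, and 2 were below it in both, against 35.2%. None had opposite directions, which 29.7% of features had, though 1 did under quantile normalization and 1 with the length and GC trend removed. Some of the 7 were barely above the control in 1 library. The log2 difference was 0.05 for Ltb with shRNA 1, and 0.07 for Tnfsf13b and 0.09 for Tnfsf15 with shRNA 2. The median difference of the 9 was 0.35 on the log2(value + 1) scale, and that of all tested features was -0.0015. Without Tnfsf13, which passed the filter on low values only through the libraries where it was above 0, 6 of 8 were higher and 2 lower, with a median of 0.34. Both libraries are compared with the same control, so shared directions are not independent. In bulk RNA, fewer cells expressing a gene and less RNA per cell cannot be told apart.

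**Figure D2:**
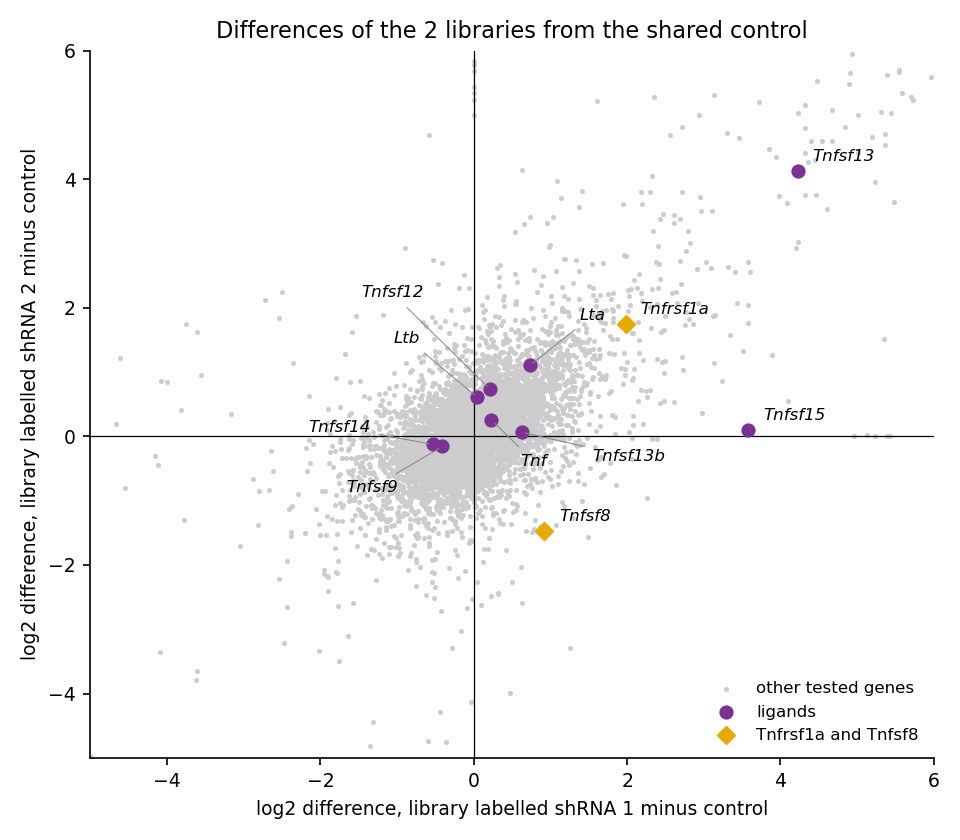
Log2 difference from the control, on the log2(value + 1) scale, in the library labelled shRNA 1 (horizontal) and in that labelled shRNA 2 (vertical), for tested genes with a symbol (grey), the 9 ligands (purple) and Tnfrsf1a and Tnfsf8 (yellow). Both axes share the control, 76 genes lie outside the axes, and Tnfsf15 lies far along the horizontal axis (3.58) with a vertical value of 0.09.

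Tnf had 35124 normalized counts in the control, 41171 with shRNA 1 and 41924 with shRNA 2. The control was the lowest of the 3 and the shRNA libraries lay close together. By limma, 2 libraries against 1, the log2 difference was 0.24 (SE 0.13, adjusted p = 0.759), higher in 2 of 2 libraries. Differences of that size were common, since Tnf lay at percentile 75.8 of all tested differences with shRNA 1 and at 76.8 with shRNA 2.

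Lta encodes lymphotoxin alpha, which is secreted as a trimer that binds the TNF receptors, or joins Ltb on the membrane. It had 116 normalized counts in the control, 194 with shRNA 1 and 251 with shRNA 2, and the control was below both. The ratio to the control was 1.67 and 2.16, and limma gave a log2 difference of 0.92 (SE 0.31, adjusted p = 0.698), higher in 2 of 2 libraries. Ltb had 2157, 2229 and 3288 in the same order. Its shRNA 1 value was near the control and only shRNA 2 stood above, with log2 differences of 0.05 and 0.61 (mean 0.33, SE 0.28, adjusted p = 0.836 in limma).

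Neighbouring genes lay on either side of the control. Nfkbil1, the next protein-coding gene beyond Lta, had 2103 normalized counts in the control and 1712 and 1708 with shRNA 1 and shRNA 2. Lst1, the next beyond Ltb, had 967, 791 and 1248, and Aif1, beyond Lst1, had 174, 250 and 225. The level of Tnf was 302 times that of Lta in the control, 212 times with shRNA 1 and 167 times with shRNA 2, in normalized counts.

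Tnfsf15, which encodes TL1A, gave the widest contrast between the shRNA libraries. It had 173 normalized counts in the control, 2083 with shRNA 1 and 185 with shRNA 2. The shRNA 1 library was thus the high one, and the control and the library labelled shRNA 2 lay within 1.07-fold of each other. The log2 difference was 3.58 with shRNA 1 and 0.09 with shRNA 2, a gap of -3.49 for shRNA 2 minus shRNA 1, with 1 library each and hence no test. Over both libraries limma gave a mean of 1.84 (SE 1.52) and an adjusted p of 0.836, and the gap between the shRNA libraries was wider than that mean. Among 13733 tested features above 0 in every library, 14 had a shRNA 1 difference at least as large, Tnfsf15 included, and 3 of these were within 1.5-fold of the control with shRNA 2.

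Tnfsf8, the ligand of CD30, lies 86195 bases from Tnfsf15 on chromosome 4 on the same strand and is its nearest protein-coding neighbour on that side. It had 383 normalized counts in the control, 725 with shRNA 1 and 138 with shRNA 2. The shRNA 1 library was again the highest, while the library labelled shRNA 2 was the lowest of the 3. Its log2 differences were 0.92 and -1.47, and limma's mean over both was -0.28 (SE 1.06, adjusted p = 0.965). Tnc, which encodes the matrix protein tenascin C and is the next protein-coding gene after Tnfsf8, had 19576, 34132 and 12450. It was named after its values were seen, and it too was highest with shRNA 1 and lowest with shRNA 2. On the other side the nearest protein-coding gene, Gm11214, was listed at 0 in every library.

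**Figure D3:**
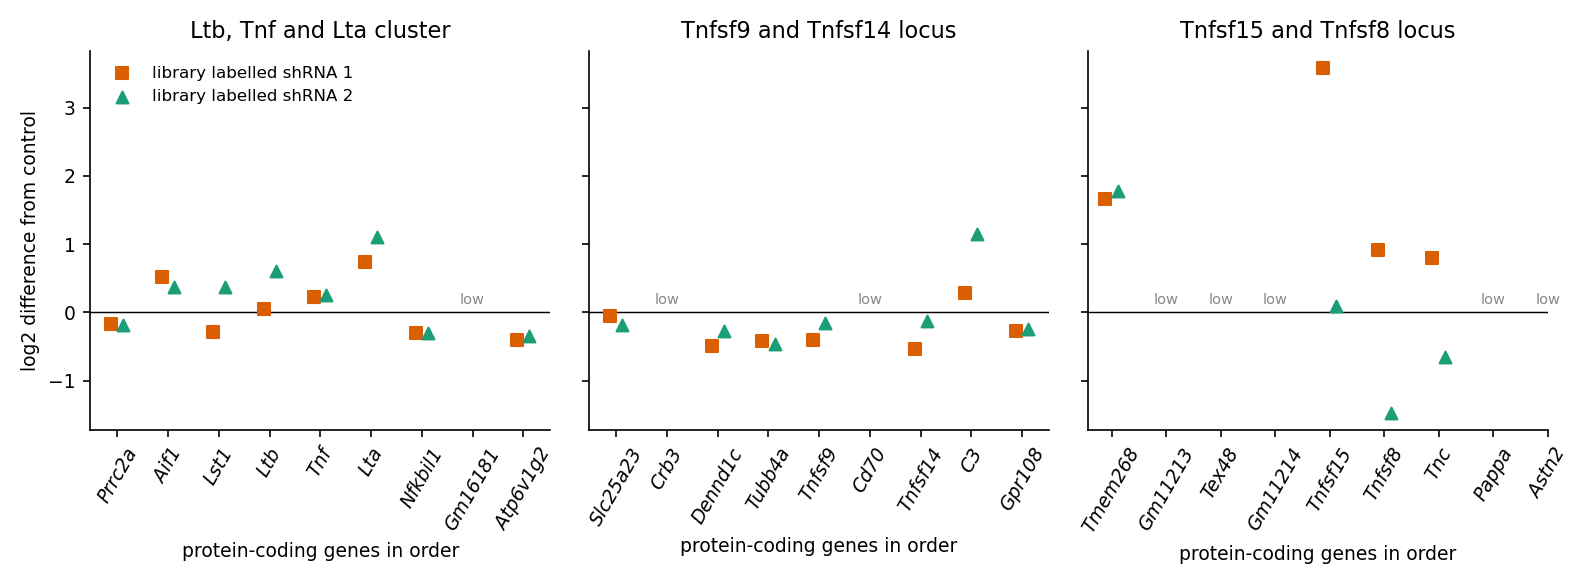
Log2 difference from the control on the log2(value + 1) scale for protein-coding genes in chromosome order around 3 groups of ligands, with a square for the library labelled shRNA 1, a triangle for that labelled shRNA 2 and "low" for genes under the filter on low values. Tnfsf15, Tnfsf8 and Tnc have a square above 0 (3.58, 0.92 and 0.80) with the triangle below it (0.09, -1.47 and -0.65), while Lta has both symbols above those of Tnf.

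Tnfsf9, which costimulates T cells through Tnfrsf9 (4-1BB), was the most abundant ligand to lie below the control in both libraries. It had 3368 normalized counts in the control, 2532 with shRNA 1 and 3022 with shRNA 2. The control was the highest of the 3, and the log2 difference was -0.28 (SE 0.17, adjusted p = 0.786 in limma). Tnfsf14, which binds Tnfrsf14 (HVEM) and Ltbr and lies 81735 bases from Tnfsf9 on chromosome 17, had 32.6, 22.3 and 29.9. At such values its log2 differences of -0.53 and -0.12 rest on few reads (mean -0.33, SE 0.48, adjusted p = 0.903 in limma). Cd70, the third ligand gene of that locus, lies between them and was listed at 0 throughout. C3, the complement gene next to Tnfsf14 on the other side, had 2288, 2795 and 5052, above the control in both libraries. Tubb4a, the nearest protein-coding gene beyond Tnfsf9, had 102, 75.7 and 73.3. The noncoding gene Gm11110, which overlaps Tnfsf9 on the other strand, had 302, 269 and 295.

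Tnfsf13b encodes BAFF, a survival factor for B cells. It had 260 normalized counts in the control, 402 with shRNA 1 and 273 with shRNA 2. As for Tnfsf15, the shRNA 1 library was the high one and the other 2 lay together, though the ratio to the control was only 1.54. The log2 difference over both libraries was 0.35 (SE 0.33, adjusted p = 0.846 in limma). Its neighbour Abhd13 had 1778, 2010 and 1786, and Myo16 on the other side was listed at 0.

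Tnfsf12 and Tnfsf13 lie 466 bases apart on the minus strand of chromosome 11, and the annotated gene Tnfsfm13 spans both, so reads from one stretch can belong to either of 2 genes. Tnfsf12, the ligand of Tnfrsf12a (Fn14), had 32.2 normalized counts in the control, 37.5 with shRNA 1 and 54.3 with shRNA 2. Tnfsf13, which encodes APRIL, had 17.7 with shRNA 1 and 16.5 with shRNA 2, while the control lists it at 0. Tnfsfm13 went the other way, with 45.5 in the control and 17.4 and 30.4. The sum of the 3 genes was 77.7 in the control, 72.5 with shRNA 1 and 101 with shRNA 2, so the control was not the lowest in the sum. Log2 differences of the sum were -0.10 and 0.38. That sum was formed after the values were seen. The antisense gene Tnfsf13os, which overlaps all 3 on the other strand, had 12.1, 8.14 and 6.98. The sources used here do not give how the authors' counting divided reads among these genes, so each value is uncertain by itself, and the 0 of Tnfsf13 gives no fold change. The flanking genes were Senp3, with 5191, 6109 and 5039, and Polr2a, with 4785, 5051 and 5566. Their mean log2 differences over both libraries were 0.10 and 0.15.

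**Figure D4:**
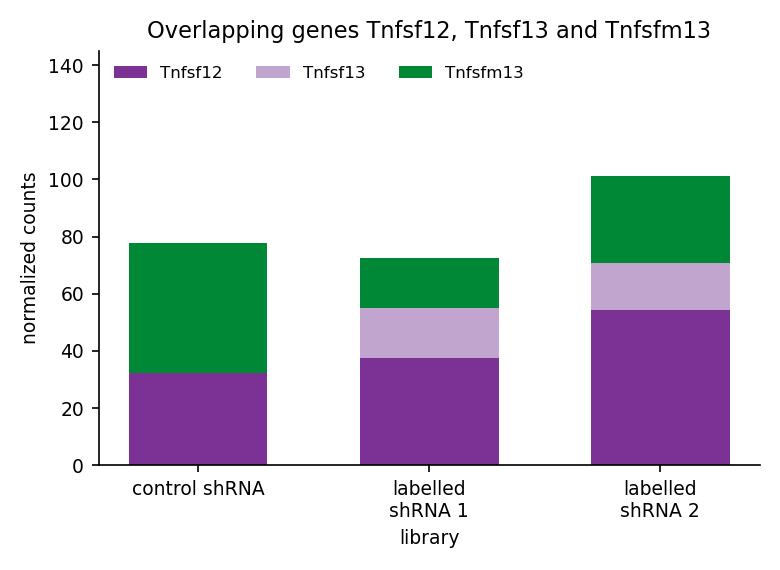
Normalized counts of Tnfsf12, Tnfsf13 and Tnfsfm13 stacked for each library, starting at 0. The control has no Tnfsf13 segment and the largest Tnfsfm13 segment (45.5), and its stack (77.7) is between those of shRNA 1 (72.5) and shRNA 2 (101).

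Of the 9 other ligands of the family, 3 were above the filter on low values and 5 were listed at 0 in every library (Tnfsf11, Fasl, Cd40lg, Cd70 and Eda). Besides Tnfsf8, these were Tnfsf10 and Tnfsf4. Tnfsf10 (TRAIL), a ligand of death receptors, had 1954 normalized counts in the control, 1587 with shRNA 1 and 1224 with shRNA 2. Its control value was the highest, with a log2 difference of -0.49 (SE 0.22, adjusted p = 0.735 in limma). Tnfsf4 (OX40 ligand) had 16.9, 18.9 and 19.2, and Tnfsf18, under the filter, had 4.68, 4.44 and 6.74.

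Among the receptors of these ligands, Tnfrsf1a was the abundant one with the widest difference from the control in both shRNA libraries, and no ligand above 0 in the control reached its difference in both. Tnfrsf1a, the death-domain receptor for Tnf and Lta, had 5123 normalized counts in the control, 20227 with shRNA 1 and 17149 with shRNA 2. Both shRNA libraries lay far above the control, at 3.95 and 3.35 times its value. The log2 difference was 1.86 (SE 0.16), the unadjusted p was 0.000287 and the adjusted p was 0.162 in limma, so it did not pass. With the trend of the differences on transcript length and GC content removed it was 1.94 with an adjusted p of 0.0392 in limma, 1 of 31 features to pass there. Tnfrsf1a passed under no other alternative. Across the settings with a test its adjusted p in limma reached 0.422, without the variance trend. Among the 13733 tested features above 0 in every library, 80 had both differences at least as large as the smaller of its pair, Tnfrsf1a included. No annotated gene overlaps Tnfrsf1a (chromosome 6, 125349362 to 125362484).

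Tnfrsf1b, the other Tnf receptor, which has no death domain, had 75055, 67607 and 59939 normalized counts. Its log2 difference was -0.24 (SE 0.16, adjusted p = 0.803 in limma). Per kilobase of transcript the level of Tnfrsf1b was 8.27 times that of Tnfrsf1a in the control, 1.89 times with shRNA 1 and 1.97 times with shRNA 2. Ltbr, the receptor of the Lta and Ltb heterotrimer and of Tnfsf14, lies near Tnfrsf1a on chromosome 6 and had 3275, 1856 and 2446, with a log2 difference of -0.62 (SE 0.22, adjusted p = 0.708 in limma). The control was the highest for Ltbr and the lowest for Tnfrsf1a.

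Tnfrsf9, the receptor of Tnfsf9, had 213 normalized counts in the control, 327 with shRNA 1 and 466 with shRNA 2. It was above the control in both libraries (log2 difference 0.87, SE 0.31, adjusted p = 0.717 in limma), whereas its ligand was below. Tnfrsf12a had 699, 550 and 482, below the control in both (-0.44, SE 0.20, adjusted p = 0.738 in limma), and Tnfrsf14 had 132, 159 and 143. Tnfrsf13b (TACI), a receptor for BAFF and APRIL, had 1.89, 19.3 and 9.22. It passed the filter only through the shRNA libraries and its control value stands for about 2 reads. Tnfrsf17 had 10.3, 2.23 and 8.63, and Tnfrsf13c and Tnfrsf25, the receptor of TL1A, were at most at 2.22 and 1.89. In all, 7 of these 10 receptors were tested and none passed in either direction. Above the control in both libraries were 4, against 34.9% of all tested features, and 3 were below, against 35.2%.

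**Figure D5:**
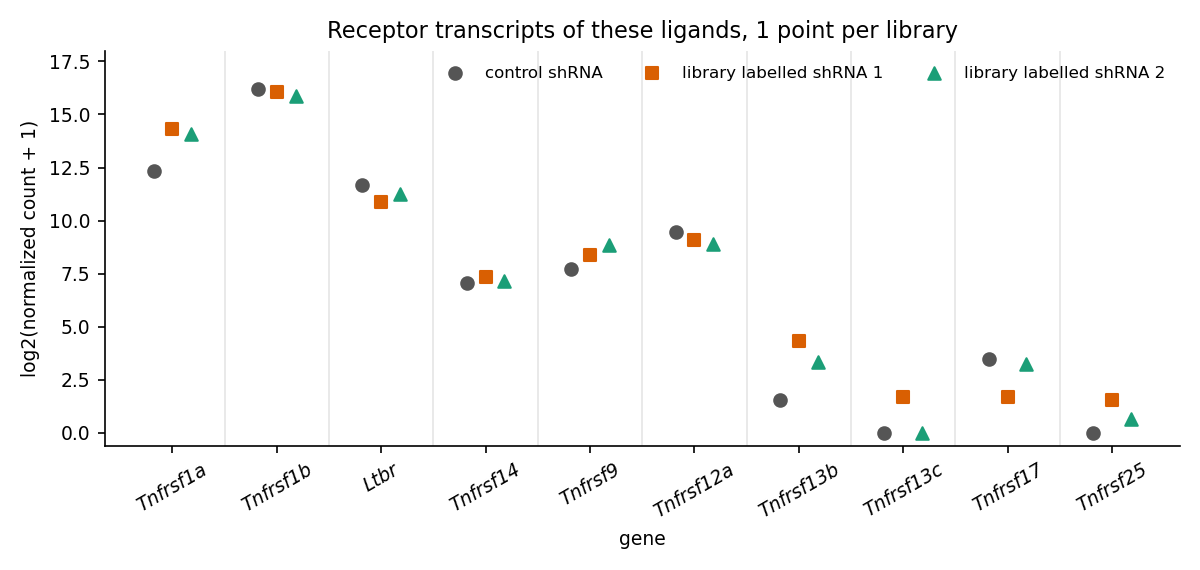
Level of each receptor of these ligands as log2(normalized count + 1), 1 point per library (grey circle, control shRNA; orange square, labelled shRNA 1; green triangle, labelled shRNA 2), not corrected for transcript length. Tnfrsf1a shows the control (5123 normalized counts) below both shRNA libraries (20227 and 17149), and the last 4 receptors lie below 20 normalized counts in every library.

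Of 18 other members of the receptor family 11 were tested and none passed, with a median difference of 0.09. Higher in both libraries were 5, against 34.9% of all tested features, and 5 were lower, against 35.2%. The widest was Tnfrsf22, a decoy receptor in mice, with 141 normalized counts in the control, 226 with shRNA 1 and 249 with shRNA 2. Tnfrsf4 (16.3, 10.1 and 11.6), Eda2r (80.6, 139 and 92.9) and Relt (108, 131 and 173) followed by size of difference.

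Tested genes linked to ligand cleavage differed little from the control. Of 9, 8 were tested and none passed, and the median was -0.10. None was higher in both libraries, against 34.9% of all tested features, and 6 were lower in both, against 35.2%. Sppl2b, an intramembrane protease that cleaves the Tnf stub, had 1239 normalized counts in the control, 1064 with shRNA 1 and 896 with shRNA 2. Rhbdf2 (iRhom2), which carries the Tnf convertase Adam17 to the surface, had 19656, 17169 and 15094, and its paralog Rhbdf1 had 198, 172 and 197. Frmd8, which stabilizes that complex, had 1950, 1555 and 1783. Among these genes Adam17 itself had 12819, 12044 and 12664. Timp3, the gene under the filter, had 6.80, 3.04 and 0.

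Regulators of cytokine mRNA went both ways. All 12 were tested and none passed, and the median was 0.13. Above the control in both libraries were 6, against 34.9% of all tested features, and 4 were below, against 35.2%. Zfp36l1, a tristetraprolin relative that binds AU-rich elements, had 289 normalized counts in the control, 621 with shRNA 1 and 952 with shRNA 2 (log2 difference 1.41, SE 0.33, adjusted p = 0.533 in limma). Zfp36l2, of the same family, had 3005, 2362 and 2130, and was highest in the control. Rc3h1 (roquin) had 4267, 5498 and 4891, and Tial1 had 4092, 4846 and 4722. Zfp36 itself, the regulator best known for Tnf mRNA, had 54625, 52403 and 43407.

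Of 14 genes of receptor-proximal signalling and the noncanonical NF-kB pathway all were tested and none passed. There were 4 higher and 5 lower in both libraries, 5 with opposite directions and a median of 0.03. Over all tested features these shares were 34.9% higher, 35.2% lower and 29.7% opposite. Traf1, an NF-kB-induced adaptor, had 7505 normalized counts in the control, 12157 with shRNA 1 and 8931 with shRNA 2. Map3k14 (NIK), the kinase of the noncanonical pathway, had 909, 548 and 823, while Traf3, which holds that kinase in check, had 1506, 2102 and 1867. Birc3, an inhibitor of TNF-induced death, had 3184, 4178 and 4134.

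Genes closest in pattern to a ligand were sought by the distance between their pairs of log2 differences, over 3 libraries only, among features at a mean of at least 50. The nearest to Lta by symbol were Gm38312, Nr1h2 and Tbl1xr1, at distances of 0.0055, 0.021 and 0.024 on the log2 scale. Pole and Elovl6 were near Ltb, and nearest to Tnfsf12 were Acot11, Recql and Alms1. To Tnfsf13b they were Ubxn7, Shb and Zfp703. For each of these ligands the 3 nearest genes lay at distances of at most 0.0264. For Tnfsf15 the nearest were Aacs, Slc17a6 and Ccdc92, at distances of 1.06, 1.26 and 1.27, so none of the 11378 candidates was closer than 1.06. For Tnfsf13 the nearest was Slc40a1, at 0.20, on differences that depend on the pseudocount since Tnfsf13 was listed at 0 in the control.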

How the data were processed

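RNA from 3 cultures of RAW 264.7 cells was sequenced with a stranded mRNA kit, per the labels' protocols. The deposited table holds the authors' normalized counts per gene, a signal whose scaling is not stated. Per the submitters' processing notes, Salmon, DESeq and DESeq2 were among the tools and GRCm38 was the build. Their roles, their settings and the annotation release are not given in the sources used here. Columns were matched to samples by name. Identifiers were matched to GENCODE M21 (GRCm38), which gave a symbol for 54097 and none for 234.

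Features with a mean of at least 10 (13877) were tested on log2(value + 1), a scale that understates changes of low genes. The group difference was fitted over all of them with limma 3.58.1 in R 4.3.3 (mean-variance trend, two-sided, Benjamini-Hochberg), after the script was tested on simulated data. It has 1 residual degree of freedom per gene, from the 2 shRNA libraries, with the control taken to vary like them. The series' design text calls the 2 shRNAs biological replicates. The p-values thus set the group difference against the spread between 2 different shRNAs. limma moderates that spread towards a trend over all tested features, so each SE borrows from other genes. Single libraries were compared by size alone, with 2-fold as the rule. Intervals on counts were not given because raw counts were not used here.

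Members and gene lists were chosen with earlier results of these data known. Named genes are the ligands, tested family ligands and their receptors, the 4 largest mean differences of each other list, the nearest genes in pattern and on the chromosome, and Ccdc88a. Other genes named, such as Adam17, Timp3, Zfp36, Tnc, the ligands and receptors under the filter and genes listed at 0, were chosen after their values were seen. An item that the rule names is not reported here. Alternatives covered pseudocount, filter, scaling, variance trend, fold rule, transcript length and leaving out each shRNA library.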

Additional observations from a re-analysis of the deposited data

How the results depend on the processing

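Of 448 values for 38 named genes under 12 alternatives, 444 kept their direction and, where there was a test, their side of an adjusted p of 0.05. Those of the 9 ligands were among them. Leaving out a shRNA library allows no test, so values there were judged by direction alone. For Tnfsf13 the log2 difference ran from 1.65 with a pseudocount of 8 to 5.14 with 0.5. Tnc, near 0 over both libraries (0.07), turned to -0.0436 with the length and GC trend removed, and leaving out 1 shRNA library gave -0.65 to 0.80 for Tnc and -1.47 to 0.92 for Tnfsf8. Features past an adjusted p of 0.05 in limma numbered 0, 1 at a mean of at least 50, 1 with equal totals and 31 with the length and GC trend removed, none of them a ligand. The cause was not tested. Ligands below the control in both libraries fell from 2 to 1 at a mean of at least 50, where fewer genes were tested. Ligands past 2-fold numbered 2 in each shRNA library, 4 in each at 1.5-fold, and 1 in each both at a mean of at least 50 and with features above 0 in every library, a filter chosen after seeing the data. Ligands higher than the control in both were 7 of 9, 6 of 9 both with quantile normalization and with the length and GC trend removed (2 lower in each, so 1 ligand then had opposite directions), 5 at a mean of at least 50 and 6 of 8 with features above 0 in every library. No paired analysis was possible because there was 1 control library and the labels give no shared replicate numbers. With 1 control and about 1 read per unit, the low values of Tnfsf12, Tnfsf13 and Tnfsf14 carry large counting error.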

Other observations

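Near Tnfsf15, on the side away from Tnfsf8, the first protein-coding gene above the filter on low values was Tmem268, named after its values were seen. It had 315 normalized counts in the control, 1001 with shRNA 1 and 1084 with shRNA 2, a log2 difference of 1.72 (SE 0.18, adjusted p = 0.195 in limma). Its 2 shRNA values lay close together, whereas those of Tnfsf15, Tnfsf8 and Tnc lay far apart. Aif1, 2 genes from Ltb, was above the control in both libraries, with a log2 difference of 0.44 (SE 0.26, adjusted p = 0.781 in limma).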
